A study of Mus musculus with 78 samples.

Results

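The 39 genes described here encode the nuclear subunits of the last stages of the respiratory chain in mouse soleus: 9 subunits of complex III, cytochrome c (1 gene, Cycs), 15 subunits of complex IV including Ndufa4, and 14 subunits of ATP synthase. They were chosen by gene symbol, with the older Atp5 names kept. The rule used no expression value, but earlier results of these data were known when it was made. All 39 were found among 36904 gene IDs, and all 39 passed the filter on low counts, which left 18218 genes for testing.

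Complex III passes electrons to cytochrome c, and complex IV passes them on to oxygen, with both complexes moving protons out of the mitochondrial matrix. ATP synthase lets the protons return through a ring of c subunits and makes ATP in its catalytic head. Most subunits come from nuclear genes and are joined in the mitochondrion by a few made from the mitochondrial genome. The soleus, a postural muscle with many slow oxidative fibres, relies on this pathway for sustained work, and several complex IV subunits have a form made mainly in heart and skeletal muscle besides the form found in most tissues.

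All mice were C57Bl/6. The arm fed CaAKG (calcium alpha-ketoglutarate), at 2% of the feed, held 12 males of 28 months in batch 2, beside 10 control males and 7 control females of the same age and batch. The control mice of batch 1 were 4 females and 6 males of 6 months, 6 female replicates (from 7 libraries) and 6 males of 12 months, 6 females and 9 males of 20 months, and 6 females and 5 males of 28 months. Batch is the word of the labels, which do not say which step it refers to, and M28 in the sample titles was taken to mean 28 months. The 6- and 12-month mice came from Invivos (Singapore) and the 20-month mice from the Jackson Laboratory (USA), so supplier and age cannot be told apart in 20 against 6 months. Intervention and control mice were a separate intake that was randomised after acclimatisation. No supplier is stated here for the 28-month mice, so supplier or intake may not be told apart from age in 28 against 6 or 20 months either. In whole muscle, fewer cells of a type and less RNA per cell cannot be told apart.

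Library totals, in units of 1e6 expected counts, ran from 19.5 to 81.6 (median 35.2). The tissue label was checked against fibre genes: the slow myosin gene Myh7 averaged 9240 CPM, the slow troponin gene Tnnt1 3790 CPM and the fast oxidative myosin gene Myh2 6510 CPM. Other fast-fibre genes were also high, with the troponin gene Tnnt3 at 5910 CPM and the myosin genes Myh1 and Myh4 at 2480 and 920 CPM. The median fast-fibre sum was above the slow-fibre sum in every male group and in 28-month females of batch 1. In the other female groups it was below. For fibre genes, sex-linked genes and marker sums, CPM are counts per 1e6 counts of the library total. For the members they also carry TMM scaling. In 5 libraries the sex-linked transcripts went against the label (12-month females 1 and 4, 6-month female 3, 12-month male 3 and 6-month male 3), and in 9 libraries marker sums for skin or for neutrophils and marrow passed 100 CPM. Those 9 were 28-month females 8, 10 and 12 of batch 1, batch 2 control male 4, 12-month female 5, and CaAKG males 6, 7, 8 and 10. Counts were also computed without these 14 libraries, and are given below where they moved by over 1.5 times. In 12-month female 4, one of the 5, mitochondrial-genome genes took 46.5% of the counts, the highest share of its group.

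Promoter sequence is shown for 4 of the genes below, since they fell by over 0.7 on the log2 scale at 20 months in both sexes, and since Atp5g1 and Atp5g3 encode the same mature c subunit and their ratio differed with age in males. They were picked after their values were seen. Each stretch is taken from RefSeq, build GRCm38.p6, on the minus strand, and reads 5′ to 3′. It holds the bases among the 120 before the RefSeq start that lie in no annotated exon, with matched motif letters in capitals.
Atp5g1 (chr11:96075671-96075751): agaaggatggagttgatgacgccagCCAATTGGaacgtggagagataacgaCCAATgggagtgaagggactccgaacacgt
Atp5g3 (chr2:73911327-73911446): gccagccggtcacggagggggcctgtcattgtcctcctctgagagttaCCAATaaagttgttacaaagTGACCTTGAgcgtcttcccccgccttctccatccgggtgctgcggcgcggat
Atp5e (chr2:174464106-174464221): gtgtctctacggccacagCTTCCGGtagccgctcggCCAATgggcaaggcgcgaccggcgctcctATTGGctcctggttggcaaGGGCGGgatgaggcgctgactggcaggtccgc
Uqcr11 (chr10:80406831-80406941): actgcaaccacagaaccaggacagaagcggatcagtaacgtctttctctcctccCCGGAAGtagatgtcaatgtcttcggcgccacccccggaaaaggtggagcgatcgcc

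Both strands were searched for 6 motifs in windows from 250 bases before to 50 bases after the start, which RefSeq gave for 31 of the members and for 27025 genes in all. CCAAT, read as ATTGG on the other strand, was in 51.6% of the members' windows and 41.1% of all windows; in Atp5g1 a forward and a reverse match overlap in CCAATTGG. The ETS letters CCGGAAG were in 32.3% of the members' windows, among them Uqcr11 and, on the other strand, Atp5e, and in 9.93% of all windows. The NRF1 letters GCGCATG, which overlap their own reverse form where the full palindrome is present, were in 25.8% of the members' windows (Atp5g2, Atp5k, Atp5l, Cox5b, Cox6a1, Cycs, Uqcr11 outside the printed stretch, and Uqcrc1) and 4.41% of all. The ERR letters TNAAGGTCA were in 1 member, Atp5g3, where they read TGACCTTGA on the printed strand (3.23%, against 1.43% of all windows). The YY1 letters AAGATGG were in 3 members, Atp5j, Atp5j2 and Cox7c (9.68%, against 7.28% of all windows). The SP1 letters GGGCGG, found in Atp5e, were in 29% of the members' windows and 38.2% of all. A match is a description of the letters, not of binding.

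Per kilobase of transcript, the highest level averaged over groups was that of Atp5b, the catalytic beta subunit of ATP synthase, at 1850 CPM per kb. The muscle form of complex IV subunit 6a, Cox6a2, stood at 1280, the complex IV subunit Cox4i1 at 1220, the alpha subunit Atp5a1 at 1150 and the muscle form Cox8b at 1020 CPM per kb. The lowest levels were 81.5 CPM per kb for Cox8a and 54.6 CPM per kb for Cox6a1, the forms of these same subunits found in most tissues. The 3 genes for the c subunit of the ATP synthase ring ranked apart, with Atp5g3 at 997, Atp5g2 at 381 and Atp5g1 at 275 CPM per kb. This order rests on annotated transcript lengths of 718, 586 and 2676 bases. Not divided by length, Atp5g1 was the highest of the 3, at 735 CPM, with Atp5g3 at 717 and Atp5g2 at 223 CPM. The order differed between groups: in 12-month females the mean levels of Cox8b (2020 CPM per kb) and Cox4i1 (2000) stood above that of Atp5b (1900), and in 6-month males Cox4i1 (1740) stood above Cox6a2 (1650). The 12-month female means include female 4, whose members summed to 45640 CPM, against 20030 to 31730 CPM in the rest of its group. These CPM carry TMM scaling, in which a smaller factor raises the CPM of every gene of a library. The factor of female 4 was 0.403, against 0.866 to 1.27 in the rest, so its high sum, here and below, rests on that factor.

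The summed level of the 39 members was lower at 20 and 28 months than at 6 and 12 months in both sexes. In females of batch 1 it averaged 26490 ± 3940 CPM at 6 months (SD, n = 4), 30390 ± 8430 at 12 months (n = 6, with female 4 at 45640 and a median of 28770), 15800 ± 991 at 20 months (n = 6) and 17260 ± 4130 at 28 months (n = 6). In males it averaged 28100 ± 4340 CPM at 6 months (n = 6), 30050 ± 3530 at 12 months (n = 6), 17380 ± 1580 at 20 months (n = 9) and 21930 ± 849 at 28 months (n = 5). The 20-month females lay at 14600 to 17630 CPM, below every 6-month female at 22660, 27630, 31500 and 24150 CPM. The 20-month males, at 15720 to 20800 CPM, lay below the lowest 6-month male at 21860 CPM. The 28-month males at 22340, 23230, 21470, 21470 and 21150 CPM overlapped the range of 6-month males, 21860 to 34360 CPM.

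**Figure D1:**
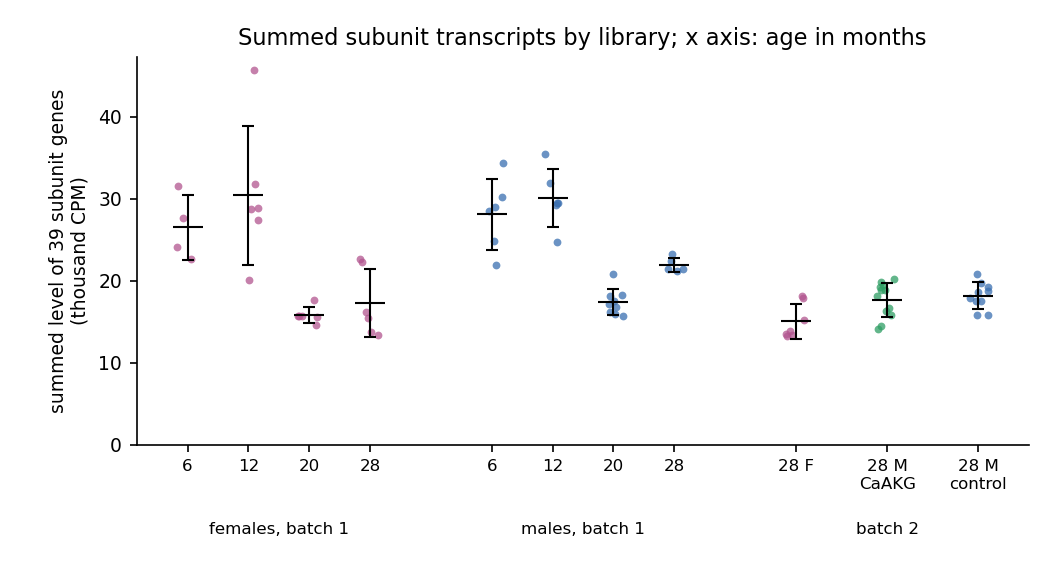
Summed CPM of the 39 members per library, for each group by age, sex, batch and feed, with points for libraries and bars for the mean and SD. The 20-month libraries lie below all 6-month libraries of their sex, and the CaAKG and control males of batch 2 overlap.

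At 20 against 6 months, 36 of 39 members fell in females and 37 of 39 in males by edgeR's quasi-likelihood test (Benjamini-Hochberg adjusted p under 0.05 over all 18218 genes), and 0 rose. Of all genes tested, 36% were called in females (17.8% fell and 18.2% rose) and 44.6% in males (22% fell and 22.6% rose). The members' median log2 fold change was -0.94 in females, against 0.00 for all genes, and -0.91 in males, against 0.02 for all genes. In females 39 members had library ranges wholly below the 6-month range, as had 16.4% of all genes, and in males 25 did, as had 11.7% of all genes. The members that did not pass were Uqcrc2 and Atp5a1 in both sexes and Atp5k in females.

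At 28 against 6 months, 36 members fell in females and 22 in males, and 0 rose. Over all genes 18.9% were called in females (9.04% fell and 9.91% rose) and 16.1% in males (9.38% fell and 6.76% rose). The members' median log2 fold change was -0.71 in females (0.09 for all genes) and -0.49 in males (0.02 for all genes). Library ranges lay wholly below those at 6 months for 7 members in females (2.98% of all genes) and for 13 in males (6.59% of all genes). The test of the difference between the sexes, an interaction of sex and age, called 0 members (0.329% of all genes were called), with 2 members at an unadjusted p under 0.05, and DESeq2 and limma-voom also called 0 members, and 285 and 40 genes in all. Counts at 28 against 6 months moved with single libraries: without 6-month female 3, which goes against its sex label, 15 fell in females, and in males 8 fell without 28-month male 14, 9 without 6-month male 5 and 8 without 6-month male 6. Without all 14 libraries named above 17 members fell in females, where 7.32% of all genes were called. With a spread estimated from the female groups of 6 and 28 months alone 0 members passed, as did 0 of all 15595 genes tested in that fit, with 36 members and 23.2% of those genes at an unadjusted p under 0.05. Of the called members, 15 of 36 in females and 7 of 22 in males passed with each single library of the compared groups left out in turn, as did 34 of 36 and 36 of 37 at 20 months.

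**Figure D2:**
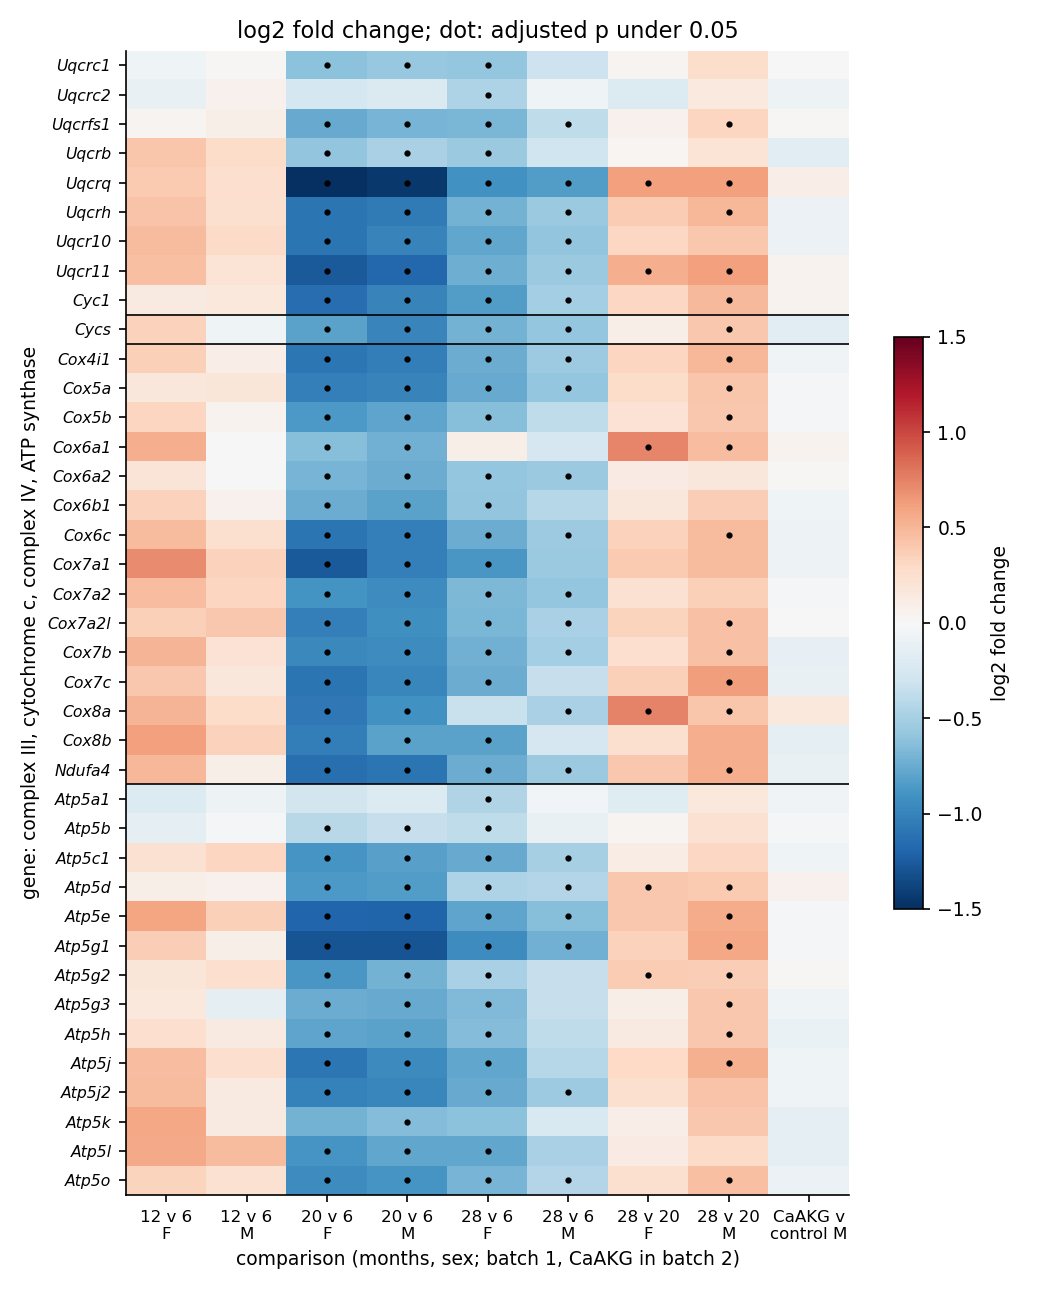
Log2 fold change of each of the 39 members (down the page, by complex) in 9 comparisons (across), with blue for lower and red for higher in the older or treated group and a dot for an adjusted p under 0.05. Dots fill nearly every cell of 20 against 6 months, are fewer in 28-month males, and are absent with CaAKG and at 12 against 6 months.

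In complex III, 8 of 9 subunits fell at 20 months in each sex, and the median log2 fold change was -1.09 in females and -1.0 in males. Uqcrq, a small subunit known as the ubiquinone-binding protein of the complex (ENSMUSG00000044894, chromosome 11, 53427922 to 53430831), lay at a lowest, median and highest of 193, 224 and 276 CPM in 20-month females, against 439, 646, 998 and 529 CPM in the 4 females of 6 months. In males it lay at 188, 245 and 311 CPM at 20 months, against 534, 624 and 857 CPM at 6 months. No 20-month library reached any 6-month library of its sex. The log2 fold changes, -1.52 (SE 0.21, adjusted p = 3.5e-08) and -1.45 (SE 0.17, adjusted p = 1.4e-10), were the lowest of the 39 members in females and in males. Uqcr11, a small accessory subunit whose promoter is printed above, was at -1.26 in females and -1.18 in males, and Cyc1, the cytochrome c1 subunit that hands electrons to cytochrome c, at -1.14 and -1.0.

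At 20 months the 2 large core proteins had log2 fold changes nearer to 0 than the median of complex III. Uqcrc2, core protein 2, lay at 472, 503 and 545 CPM (lowest, median, highest) in 20-month females, against 606, 632, 627 and 558 CPM in 6-month females. The ranges did not overlap, but the log2 fold change of -0.26 (SE 0.12) had an adjusted p of 0.078, and that in males was -0.22 (SE 0.10, adjusted p = 0.057). At 28 months Uqcrc2 fell in females (-0.46, SE 0.12, adjusted p = 0.0041) and was at -0.07 in males (SE 0.11, adjusted p = 0.76). Uqcrc1, core protein 1, was at -0.62 and -0.57 at 20 months and at -0.58 in 28-month females, past the test each time (in 28-month females not without 6-month female 3), and at -0.31 in 28-month males (adjusted p = 0.095). At 28 months 9 of 9 subunits fell in females and 6 of 9 in males. Uqcrfs1, the iron-sulfur subunit, was among them in both sexes, at -0.68 and -0.38, the second not passing without 28-month male 14, 6-month male 5 or 6-month male 6.

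Cycs, the soluble carrier between complexes III and IV (chromosome 6, 50562563 to 50566538), was at 399, 436 and 496 CPM (lowest, median, highest) in 20-month females, against 627, 800, 864 and 744 CPM in 6-month females. In males it was at 406, 457 and 583 CPM at 20 months and 713, 892 and 1220 CPM at 6 months. At 28 months the females spread over 279, 426 and 658 CPM and reached into the 6-month range, while the males, at 613, 745, 592, 571 and 575 CPM, had 1 of 5 libraries above the lowest 6-month male. Cycs fell in all 4 comparisons, by 0.80 and 0.99 on the log2 scale in females and males of 20 months, and by 0.71 (SE 0.18, adjusted p = 0.0033) and 0.58 (SE 0.17, adjusted p = 0.012) in those of 28 months.

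In complex IV, 15 of 15 subunits fell at 20 months in females and in males, with median log2 fold changes of -1.03 and -0.94. The summed level of the 15 was 3661 ± 279 CPM in 20-month females (SD, n = 6) and 7143 ± 1250 CPM in 6-month females (n = 4). At 28 months 13 fell in females and 9 in males. Cox5a, a matrix-side subunit (chromosome 9, 57521274 to 57532426), had the smallest p of the members in 28-month males, at 393, 394, 362, 356 and 370 CPM against 446, 544 and 667 CPM (lowest, median, highest) at 6 months. Every 28-month male lay below every 6-month male, and the log2 fold change was -0.58 (SE 0.14, adjusted p = 0.0029). In females Cox5a lay at 251, 292 and 425 CPM at 28 months, against 426, 553, 710 and 502 CPM at 6 months (-0.76, SE 0.15, adjusted p = 4.1e-04).

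Ndufa4, first assigned to complex I and now counted with complex IV, fell in all 4 comparisons with 6 months. It lay at 198, 219 and 262 CPM (lowest, median, highest) in 20-month females, against 358, 524, 621 and 454 CPM in 6-month females, and at 214, 246 and 317 CPM in 20-month males, against 428, 510 and 710 CPM in 6-month males. The ranges did not overlap in either sex. At 28 months it was at 204, 245 and 446 CPM in females, reaching into the 6-month range, and at 393, 403, 365, 349 and 321 CPM in males, below every 6-month male. Its log2 fold changes were -1.13 and -1.10 at 20 months, and -0.74 (adjusted p = 0.0054) and -0.56 (adjusted p = 0.028) at 28 months, in females and in males. The 28-month call was lost in males without 28-month male 14 or 15 or 6-month male 5 or 6 (-0.54 to -0.47), and in females without 6-month female 3 (-0.58).

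Cox6a1, the form of subunit 6a found in most tissues (chromosome 5, 115345642 to 115348981), departed furthest from the other members in 28-month females. Its libraries lay at 23.9, 35 and 44.9 CPM (lowest, median, highest) there, against 28.4, 27.8, 44.9 and 28.8 CPM in 6-month females. The ranges overlapped throughout, and the log2 fold change was 0.09 (SE 0.18, adjusted p = 0.75). Without the skin and marrow libraries it was -0.13. Cox8a, the form of subunit 8 found in most tissues, was at -0.33 in the same comparison (SE 0.17, adjusted p = 0.17). At 20 months both genes fell in both sexes: Cox6a1 was at 18.4, 20.5 and 23.5 CPM in 20-month females, and its log2 fold change was -0.64 in females (not past the test without 6-month female 3) and -0.72 in males. Cox8a was at 20.6, 26.6 and 29.3 CPM in 20-month females, against 41, 54.5, 76.6 and 47.5 CPM in 6-month females, and at 23.4, 27.2 and 45.7 CPM in 20-month males, against 50, 54.4 and 70.7 CPM in 6-month males. Neither pair of ranges overlapped, and its log2 fold changes were -1.07 and -0.91.

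The muscle forms fell beside them at 20 months. Cox6a2 lay at 620, 695 and 741 CPM (lowest, median, highest) in 20-month females, against 984, 1190, 1300 and 1010 CPM in 6-month females, and at 582, 663 and 838 CPM in 20-month males, against 877, 1180 and 1310 CPM in 6-month males. At 28 months it was at 487, 744 and 983 CPM in females and at 840, 783, 765, 787 and 629 CPM in males. No library of 20 or 28 months in batch 1 reached a 6-month library of its sex. The log2 fold changes were -0.70 in females and -0.74 in males of 20 months and -0.58 and -0.56 at 28 months, each past the test, though in 28-month females not without 6-month female 3.

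Cox7a1, the muscle form of subunit 7a, was at 71.4, 88.3 and 118 CPM (lowest, median, highest) in 20-month females, against 156, 217, 303 and 194 CPM in 6-month females, and at 80.6, 110 and 166 CPM in 20-month males, against 163, 223 and 360 CPM in 6-month males. Its counterpart in most tissues, Cox7a2, was at 119, 130 and 139 CPM in 20-month females, against 176, 246, 338 and 200 CPM in 6-month females, and up to 190 CPM, with a median of 127, in 20-month males, against 202, 261 and 297 CPM in 6-month males. The ranges were apart except those of Cox7a1 in males, which overlapped between 163 and 166 CPM. Cox7a1 fell by 1.26 and 1.03 on the log2 scale and Cox7a2 by 0.90 and 0.94, in females and males. At 28 months Cox7a1 lay at 45.5, 99.8 and 222 CPM in females and at 152, 191, 150, 134 and 157 CPM in males, and Cox7a2 at 116, 134 and 203 CPM in females and at 193, 192, 166, 146 and 158 CPM in males. The 28-month males lay below every 6-month male in Cox7a2, and the other 3 of these ranges overlapped those of 6 months. Cox7a1 fell in 28-month females (-0.87, adjusted p = 0.024), a call lost without 28-month female 8, 9 or 11 or 6-month female 3, and was at -0.56 in 28-month males (adjusted p = 0.16). Cox7a2 fell in both sexes, at -0.67 and -0.58, a call lost in females without 6-month female 3 and in males without 28-month male 14 or 6-month male 6.

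Cox8b, the muscle form of subunit 8, was at 184, 227 and 309 CPM (lowest, median, highest) in 20-month females, against 375, 585, 486 and 468 CPM in 6-month females, and at 195, 200 and 406 CPM in 20-month males, against 305, 414 and 735 CPM in 6-month males. The ranges were apart in females and overlapped in males, and both comparisons passed the test, at -1.04 and -0.80. At 28 months Cox8b lay at 161, 232 and 437 CPM in females and at 360, 469, 356, 345 and 339 CPM in males, and both ranges overlapped those of 6 months. It passed in females (-0.80, SE 0.29, adjusted p = 0.043), but not when any of 28-month females 8 to 11 or 6-month females 2 to 4 was left out (-0.80 to -0.69), which makes 7 of 10 libraries, and was at -0.25 (SE 0.28, adjusted p = 0.61) in 28-month males.

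**Figure D3:**
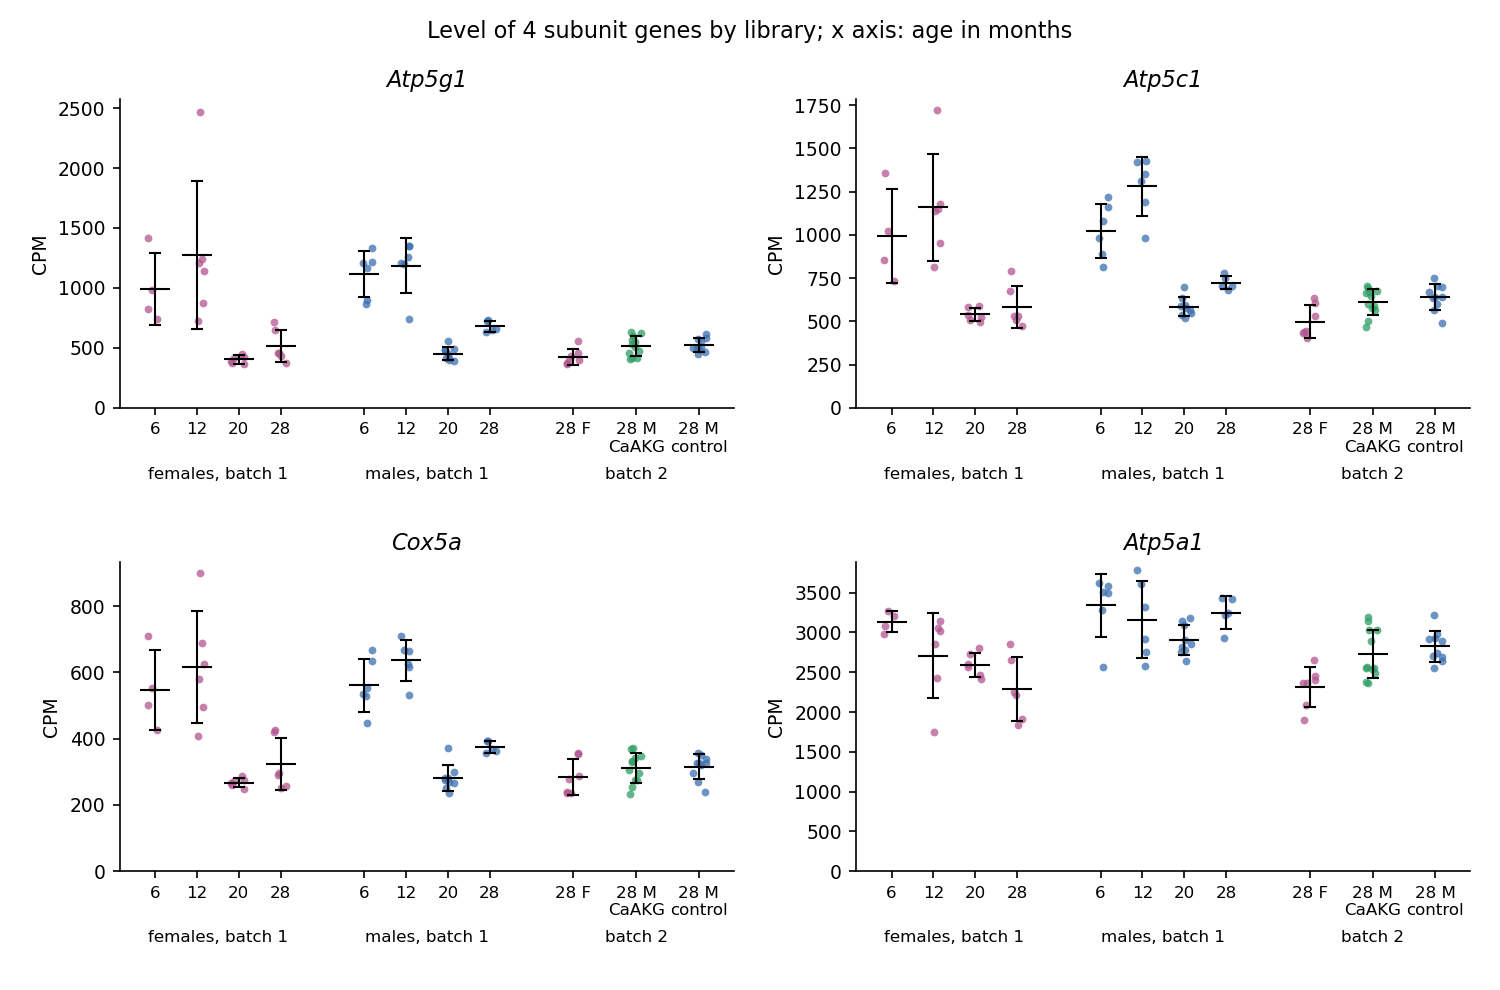
CPM per library (vertical axes, from 0) of Atp5g1, Atp5c1, Cox5a and Atp5a1 in each group by age, sex, batch and feed, with points for libraries and bars for the mean and SD. In Atp5g1, Atp5c1 and Cox5a the 20-month libraries lie below all 6-month libraries of their sex, while in Atp5a1 the 28-month males of batch 1 lie within the range of 6-month males and those of batch 2 reach below it.

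In ATP synthase, 12 of 14 subunits fell at 20 months in females and 13 in males, with median log2 fold changes of -0.87 and -0.80. The summed level of the 14 was 8991 ± 499 CPM in 20-month females (SD, n = 6) and 13710 ± 1670 CPM in 6-month females (n = 4). Atp5g1, a gene for the c subunit (ENSMUSG00000006057, chromosome 11, 96068852 to 96075670), had the smallest p of the members in both sexes at 20 months. It lay at 362, 406 and 451 CPM (lowest, median, highest) in 20-month females, against 741, 980, 1420 and 823 CPM in 6-month females, and at 393, 446 and 558 CPM in 20-month males, against 867, 1190 and 1330 CPM in 6-month males. The highest 20-month library was below the lowest 6-month library in each sex. The log2 fold changes were -1.29 (SE 0.18, adjusted p = 2.9e-08) and -1.30 (SE 0.15, adjusted p = 2.6e-11). Atp5e, the small epsilon subunit of the central stalk, was at -1.19 and -1.20 in females and males.

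At 28 months 13 of 14 ATP synthase subunits fell in females and 6 in males. Atp5c1, the gamma subunit that turns inside the catalytic head (chromosome 2, 10056016 to 10080510), had the smallest p of the members in 28-month females. It lay there at 472, 533 and 791 CPM (lowest, median, highest), against 733, 1020, 1360 and 857 CPM in 6-month females, so that the ranges overlapped between 733 and 791 CPM (-0.76, SE 0.14, adjusted p = 3.5e-04). In males it was at 777, 750, 707, 706 and 682 CPM at 28 months, below all 6-month males at 816, 1030 and 1220 CPM (-0.50, SE 0.14, adjusted p = 0.0080). Atp5g1 fell in both sexes, by 0.94 (SE 0.18, adjusted p = 3.8e-04) in females and 0.72 (SE 0.17, adjusted p = 0.0029) in males.

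The alpha and beta subunits, which form most of the catalytic head, had log2 fold changes nearer to 0 than the median of ATP synthase in all 4 comparisons with 6 months. Atp5a1, the alpha subunit, lay at 2930, 3220, 3420, 3430 and 3250 CPM in 28-month males, within the 6-month males at 2560, 3500 and 3620 CPM (lowest, median, highest). It stood at -0.04 on the log2 scale (SE 0.11, adjusted p = 0.88), or 0.01 without 28-month male 11. At 20 months it was at -0.27 (adjusted p = 0.062) in females and -0.20 (adjusted p = 0.086) in males. In 28-month females it fell: at 1840, 2240 and 2850 CPM all were below the 6-month females at 3210, 3270, 3080 and 2980 CPM (-0.45, SE 0.12, adjusted p = 0.0047). Atp5b, the beta subunit, fell at 20 months by 0.42 in females and 0.34 in males and at 28 months by 0.38 in females (not without 6-month female 3), and was at -0.11 in 28-month males (adjusted p = 0.53). Atp5k, the small e subunit, had the widest errors, and its -0.71 (SE 0.30) at 20 months and -0.61 (SE 0.30) at 28 months in females did not pass (adjusted p = 0.052 and 0.14).

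At 28 against 20 months, 24 members rose in males and 6 in females, and 0 fell. Over all genes 17% were called in males (8.25% rose and 8.78% fell) and 29.9% in females (17.3% rose and 12.6% fell). The median log2 fold change was 0.42 in males (0.00 over all genes) and 0.25 in females (0.09 over all genes). In males 5 complex III, 10 complex IV and 8 ATP synthase genes rose, with Cycs. Atp5g1 was at 0.58 (SE 0.16, adjusted p = 0.0053) with 727, 733, 654, 632 and 649 CPM at 28 months, all above the 20-month males, and Uqcrq was at 0.61 (SE 0.18, adjusted p = 0.014). Library ranges lay wholly above those at 20 months for 9 members in males (5.36% of all genes). In females the count was again near the share of all genes (4.01%), with 2 members, Cox6a1 and Cox8a. Besides these, at 0.73 (adjusted p = 3.7e-04) and 0.74 (adjusted p = 3.2e-04), Uqcrq, Uqcr11, Atp5d and Atp5g2 rose in females, at 0.61, 0.54, 0.40 and 0.38. Of the called members, 8 of 24 in males and 2 of 6 in females, Cox6a1 and Cox8a, passed with each single library left out in turn, and Cycs passed in 1 of 14 such fits. The counts depended on single libraries: in males 10 rose without 28-month male 12, 12 without male 11 and 15 without 20-month male 5, and in females 3 rose without 28-month female 13, 11 without female 9 and 13 without female 11. In males 6 of 11 slow-fibre markers (median 0.39) and 3 of 12 fast-fibre markers rose, and 6 of 12 endothelial markers fell (median -0.61). In females the 12 keratinocyte and 14 neutrophil and marrow markers all rose, as did 6 of 12 fast-fibre markers (median 0.70), and 7 of 12 endothelial markers fell (median -0.58). The keratinocyte sum was 11400 CPM in 28-month female 8 and 3.34 to 7.3 CPM in the rest of its group. The neutrophil and marrow sum was 1620, 542 and 63 CPM in females 10, 12 and 9, and 2.88 to 5.51 CPM in the rest. The part of all these markers in the members' change was not tested. Without the 14 libraries named above Cox6a1 was at 0.49 (adjusted p = 0.024) and Cox8a at 0.80 (adjusted p = 3.5e-04).

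At 12 against 6 months 0 members passed in either sex, where 0.231% of all genes were called in females and 9.85% in males (edgeR). In females 19 members and in males 3 had an unadjusted p under 0.05, as had 14.5% and 23% of all genes. The 19 became 4 without the libraries against their sex label and 9 without both doubted sets. DESeq2 called 0 and 2 members in females and males, where it called 0.49% and 12.5% of all genes, and limma-voom 1 and 3, where it called 2.14% and 17.4%. All of these members were higher at 12 months. The median log2 fold change was 0.37 in females (range -0.21 to 0.71) and 0.17 in males (-0.15 to 0.48). Without the libraries against their sex label the female median was 0.17, and with offsets for length and GC content, described at the end, the male median was -0.02. In all, 0 members had ranges that did not overlap, against 0.626% of all genes in females and 1.74% in males. The 12-month females spread widely, with Atp5g1 between 726 and 2470 CPM around a median of 1180.

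The balance between genes for 1 subunit was followed within libraries as log2 ratios of counts, for the muscle and general forms of subunits 6a, 7a and 8 and for the c subunit genes Atp5g1 and Atp5g2 over Atp5g3. The 3 c subunit genes make the same mature protein with different import sequences. Of 45 exact or permutation tests (5 ratios in 9 comparisons, two-sided, Benjamini-Hochberg adjusted), 3 passed, all for Atp5g1 over Atp5g3 in males. The ratio was -0.39 ± 0.05 (SD, n = 9) in 20-month males and 0.15 ± 0.13 (n = 6) in 6-month males, a difference of -0.54 (exact permutation p = 2.0e-04, the smallest possible, adjusted p = 0.0090). The 20-month libraries, from -0.47 to -0.32, all lay below the 6-month libraries, from -0.01 to 0.32. It was -0.22 ± 0.07 (n = 5) in 28-month males, a difference from 6 months of -0.37 (exact permutation p = 0.0022, the smallest possible, adjusted p = 0.032) and from 20 months of 0.18 (exact permutation p = 0.0010, adjusted p = 0.022). The difference of 28 from 6 months stayed at -0.40 to -0.33 when any 1 of its 11 libraries was left out, but no longer passed. That loss was fixed by group size: the smallest p that the reduced groups allow does not pass after adjustment. It therefore does not show whether the result depends on single libraries. The difference of 28 from 20 months ran from 0.16 to 0.20, and did not pass without 28-month male 11, 12, 13 or 15.

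In females the same ratio was -0.33 ± 0.06 (n = 6) at 20 months, against -0.02, 0.15, 0.56 and 0.03 in the libraries of 6 months. The ranges did not overlap, and the difference of -0.51 had the smallest exact permutation p the groups allow, 0.0048, with an adjusted p of 0.054. Among the single genes, in 20-month males Atp5g3 was at 527, 587 and 735 CPM (lowest, median, highest), against 719, 1040 and 1240 CPM at 6 months (-0.76), and Atp5g2 at 135, 167 and 208 CPM, against 213, 275 and 325 CPM (-0.71), while Atp5g1 was at -1.30. Atp5g1 counts were not whole in 100% of libraries and Atp5g2 counts in 97.4%, as happens where reads are divided among near-identical loci by estimate, while Atp5g3 counts were whole in every library. The muscle forms kept their lead: the log2 ratio of Cox6a2 to Cox6a1 had group means from 4.42 to 5.13, and that of Cox8b to Cox8a from 2.59 to 3.24, while Cox7a1 to Cox7a2 ran from -0.52 to -0.01. None of their tests passed.

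**Figure D4:**
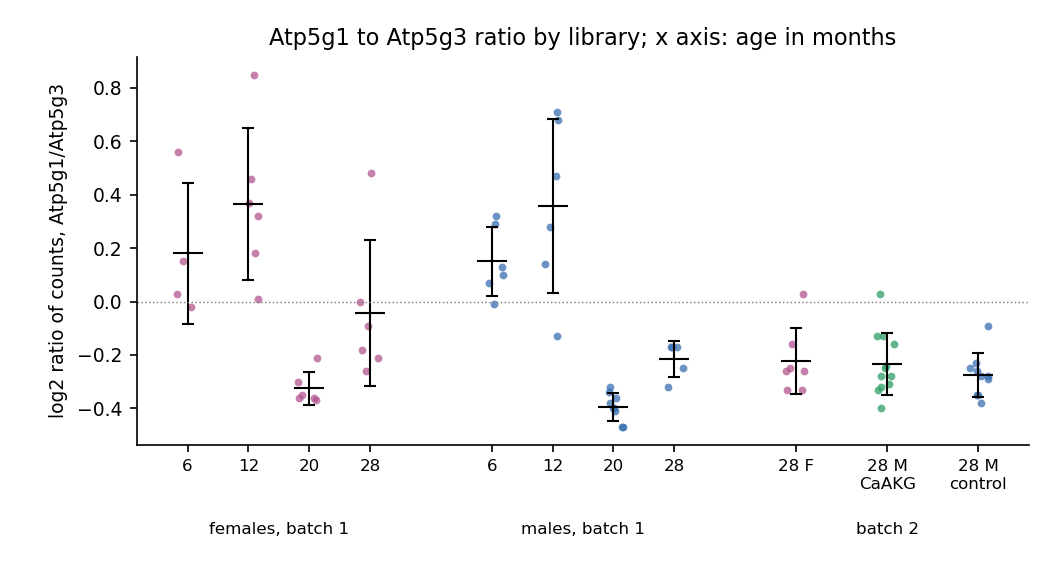
Log2 ratio of Atp5g1 to Atp5g3 counts per library (vertical axis) in each group, with points for libraries and bars for the mean and SD. The 20-month libraries lie below all 6-month libraries in both sexes, and 28-month female 9 of batch 1 lies apart at 0.48.

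With CaAKG, 0 of 39 members passed against control males of 28 months in batch 2, 0 had an unadjusted p under 0.05, and DESeq2 and limma-voom called 0. Over all genes 0.0659% were called. The members' log2 fold changes ran from -0.17 to 0.16 around a median of -0.06 (0.01 over all genes). Cycs, with the smallest p, was at 350, 469 and 547 CPM (lowest, median, highest) in CaAKG males, against 417, 526 and 640 CPM in controls (-0.16, SE 0.12, adjusted p = 0.93). Cox8a was highest relative to control, at 24.5, 31.7 and 55.3 CPM, against 24.6, 31.4 and 35.9 CPM (0.16, SE 0.12, adjusted p = 0.93). The ranges of 39 of 39 members overlapped, as did those of all genes tested (0% apart), and the members' sum was 17640 ± 2110 CPM with CaAKG (SD, n = 12) and 18180 ± 1600 CPM without (n = 10). The Atp5g1 to Atp5g3 ratio was -0.23 ± 0.12 and -0.28 ± 0.08 in the same groups, a difference of 0.04 (permutation test, adjusted p = 0.63). Of the 14 neutrophil and marrow markers 8 rose in this comparison. Their sum was 929 CPM in CaAKG male 7 and 238 CPM in CaAKG male 6, with a median of 3.65 CPM over the CaAKG males.

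Batch and sex were compared at 28 months. Between batch 2 and batch 1, 7 members fell in females (19.8% of all genes were called, 13% fell and 6.75% rose): Atp5g2, Cox8a, Cox7a2l, Uqcrq, Cox6a1, Uqcr11 and Uqcr10. None of the 7 passed with each single library left out in turn. The 12 keratinocyte and 14 neutrophil and marrow markers all fell there too. In batch 1 the keratinocyte sum was 11400 CPM in female 8, and the neutrophil and marrow sum 1620 and 542 CPM in females 10 and 12. The part of these markers was not tested. Without the skin and marrow libraries 4 members fell, where 15.1% of all genes were called. With length and GC offsets 0 fell, where 8.34% of all genes were called. In males 0 passed, with 22 at an unadjusted p under 0.05 (edgeR called 1.02% of all genes). DESeq2 called 2 members and 3.73% of all genes, and limma-voom 18 members and 16.2%, with all of these members lower in batch 2. The members' median log2 fold change was -0.30 in females and -0.31 in males, against -0.09 and 0.01 over all genes, and 7 members had ranges wholly below batch 1 in males (1.34% of all genes). Between males and females of batch 2, 0 members passed, and 24 had an unadjusted p under 0.05 (edgeR called 1.3% of all genes). DESeq2 called 3 members and 2.47% of all genes, and limma-voom 20 members and 9.84%, with all of these members higher in males. The median was 0.30, against 0.04 over all genes.

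The other genes of the chain were counted from lists made by gene function. Of 36 complex I subunits tested, 35 fell in each sex at 20 against 6 months (medians -0.98 and -0.97 in females and males), 34 in females and 25 in males at 28 against 6 months, and 27 rose in males at 28 against 20 months. Of 4 complex II subunits 3 fell in each of the 4 comparisons with 6 months, Sdhb, Sdhc and Sdhd, while Sdha, the flavoprotein subunit, was at 0.06 and 0.24 at 20 months and at -0.25 and 0.17 at 28 months, in females and males, and did not pass. Of the 6 mitochondrial-genome genes of complexes III to V, 1 fell at 20 months in females (mt-Co2, -1.01) and 4 in males (mt-Co2 -1.67, mt-Co3 -1.33, mt-Atp6 -1.11 and mt-Co1 -0.53), and 0 and 1 (mt-Atp6, -1.01) at 28 months. Of 33 assembly factors 20 fell and 4 rose in 20-month females and 24 fell and 1 rose in 20-month males, with Uqcc3, needed for complex III, at -1.11 and -1.18 and Cox14, needed for complex IV, at -1.14 and -1.20. Of 13 regulators of respiratory genes 1 fell and 6 rose in 20-month females and 4 fell and 4 rose in 20-month males. Esrra, a nuclear receptor of oxidative genes, fell in all 4 comparisons, by 0.82 and 0.85 at 20 months and 0.75 and 0.56 at 28 months. Gabpa, an ETS factor, rose at 20 months, at 0.53 and 0.51, as did the coactivator gene Ppargc1b at 1.38 and 1.24.

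Markers of blood vessels moved with age beside these genes. Of 12 endothelial markers 10 rose and 1 fell in 20-month females and 10 rose in 20-month males, and their summed level was 613, 709 and 810 CPM (lowest, median, highest) in 20-month females, against 176, 224 and 431 CPM in 6-month females, and 635, 754 and 873 CPM in 20-month males, against 129, 185 and 265 CPM in 6-month males. No endothelial marker was at 0 in any library. Of 11 slow-fibre markers 3 fell and 3 rose in females and 7 fell and 2 rose in males, and of 12 fast-fibre markers 6 fell and 1 rose and 7 fell and 1 rose. Of 10 adipocyte markers 1 fell in 20-month females and 6 rose and 1 fell in 20-month males (median 1.24), and 8 of 14 neutrophil and marrow markers fell in 20-month males. At 28 against 6 months 4 endothelial markers rose in females and 10 in males, and 4 adipocyte markers rose in males. The 14 neutrophil and marrow markers all rose in females, with sums of 1620 and 542 CPM in 28-month females 10 and 12 and a group median of 34.2 CPM. The part of cell makeup in the members' change was not tested.

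Transcript length moved with the fold changes over all genes. At 20 against 6 months in females, genes of up to 600 bases had a median log2 fold change of -0.81 and genes over 2000 bases one of 0.27. The 14 members of up to 600 bases were at -1.08, the 13 of 600 to 1000 bases at -0.94 (all genes -0.76), the 9 of 1000 to 2000 bases at -0.86 (all genes -0.45) and the 3 over 2000 bases at -0.80. With offsets for length and GC content in each library, 18 members fell in females and 27 in males at 20 months, and 18 and 4 at 28 months, with members' medians of -0.43, -0.46, -0.52 and -0.32 beside -0.10, -0.11, -0.04 and -0.09 over all genes. In the same fit 15.6% and 30.5% of all genes were called at 20 months and 7.71% and 8.04% at 28 months, in females and males, so that the 4 of 39 in 28-month males was near the share of all genes. At 28 against 20 months 0 members passed with offsets in either sex, where 11.6% of all genes were called in females and 1.45% in males. Atp5g1, one of the longest members by annotated transcript length, was at -1.38 and -1.41 with offsets at 20 months and at -1.06 (adjusted p = 0.0039) and -0.83 (adjusted p = 0.0094) at 28 months, in females and males, and Cycs at -1.01, -1.24, -0.73 and -0.68. In 28-month males the 4 that fell with offsets were Uqcrq, Cycs, Cox5a and Atp5g1. Cox6a1 changed sign with offsets at 20 months in females, at 0.06.

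**Figure D5:**
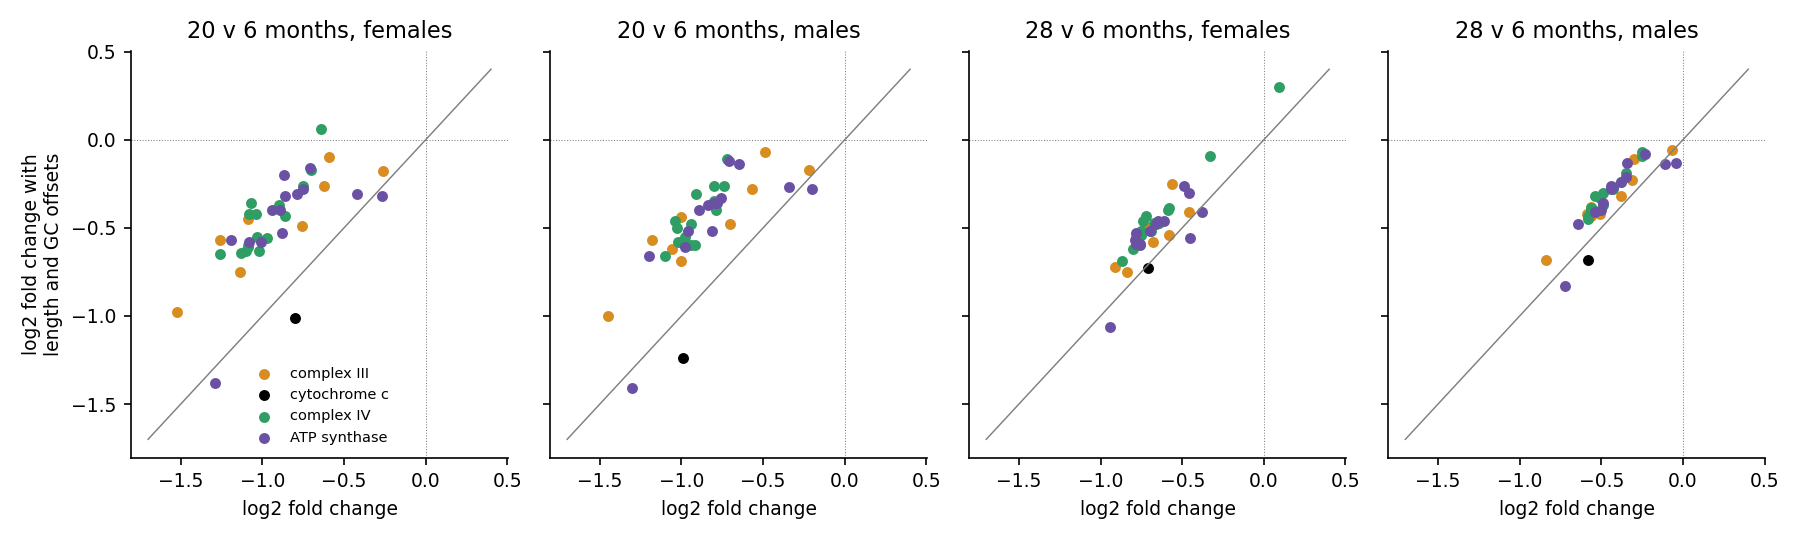
Log2 fold change of each member without (horizontal axis) and with (vertical axis) length and GC offsets, in 20 and 28 against 6 months for each sex, coloured by complex, with a grey line of equality. Most members lie above the line, nearer to 0 with offsets, while Atp5g1 and Cycs lie on or below it at 20 months.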

How the data were processed

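Soleus RNA was read as paired ends in 78 libraries. FastQC, STAR 2.7.11b and RSEM 1.3.3 were used with mm10, per the submitters' processing notes; neither the annotation release nor the strand setting is stated there. The authors deposited 1 table of expected counts, in which RSEM divides reads among near-identical genes by estimate, so that 8.99% of values were not whole (tolerance 1e-06). Its 133 columns include 55 that belong to none of these samples and stayed out. Libraries hold 19.5 to 81.6 times 1e6 counts, and Cox6a1, the member with the lowest level, had at least 519 counts in each.

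Expected counts were rounded to whole numbers. Symbols matched 35298 of 36904 IDs. The 2 libraries of 12-month females that share an animal tag were summed, which leaves 77 replicates, labelled as separate mice. One edgeR 4.0.16 quasi-likelihood fit (R 4.3.3) with 11 group means and TMM factors gave 13 comparisons over the 18218 genes left by filterByExpr (minimum count 10, minimum total 15), with Benjamini-Hochberg adjustment and a threshold of 0.05. CPM of the members use TMM factors, and those of fibre genes, sex-linked genes and marker sums use library totals alone. Ratios within a library are log2((a + 0.5)/(b + 0.5)), tested by two-sided exact permutation, or 100000 resamples for CaAKG (numpy 2.4.6), adjusted over 45 tests. Offsets are splines of 5 degrees of freedom on length and GC, known for 97.5% of tested genes. The programs were tested on simulated data.

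Alternatives were DESeq2 1.42.0, RLE factors, limma-voom 3.58.1 with quality weights, a minimum count of 50 or no filter, a fold of 1.2, the offsets, no mitochondrial genome, animal-tag libraries apart, fits without sex-mismatched libraries and without those holding skin or marrow RNA, only the compared groups, a replicate block, each replicate left out, and ratio pseudocounts of 0.1 and 5. Leaving out both doubted sets was added after the data were seen. The members and lists were chosen with earlier results of these data known. Library values, as the lowest, median and highest in groups over 5, are given for the member with the smallest p and the one furthest against the members' direction in each comparison of 20 or 28 with 6 months and of CaAKG, and, in most of the comparisons, for isoform genes, Cycs and Ndufa4, with Uqcrq added after its values were seen. Other named genes are among the 4 with the smallest p of their list in a comparison. Replicate numbers do not pair mice: correlations of same-numbered deviations had medians from -0.01 to 0.04.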

Additional observations from a re-analysis of the deposited data

Results flagged for a closer look

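In each group of 4 to 10 libraries, the summed level and the 5 ratios were searched for a library that stood apart from the rest of its group. The rule was Dixon's test at the 95% level, which chance meets in about 1 search in 20, and 60 searches were made. The 12 CaAKG males were not searched. In 28-month female 9 of batch 1, the log2 ratio of Atp5g1 to Atp5g3 was 0.48, against -0.26 to 0.00 in the other females of its group, and that of Atp5g2 to Atp5g3 was -0.30, against -1.71 to -1.56. In 28-month control males of batch 2, the ratio of Cox7a1 to Cox7a2 was -0.89 in male 3, against -0.52 to -0.12 in the others, and that of Atp5g1 to Atp5g3 was -0.09 in male 1, against -0.38 to -0.23. In 20-month female 5 the summed level of the members was 17630 CPM, against 14600 to 15720 CPM in the other females, and the ratio of Cox8b to Cox8a was 3.58, against 2.93 to 3.15. In 20-month male 3 the summed level was 20800 CPM, against 15720 to 18280 CPM. In 6-month female 4 the ratio of Cox7a1 to Cox7a2 was -0.04, against -0.18 to -0.16. The cause was not tested.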

How the results depend on the processing

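Of the values that answer a comparison, 131 stayed within 1.5 times of the reported value over the alternatives that leave out no single replicate, and 37 moved; the cause was not tested. With length and GC offsets 18 members (36 as reported) were called at 20 against 6 months in females, 18 (36) and 4 (22) at 28 against 6 months in females and males, 0 (6) and 0 (24) at 28 against 20 months, and 0 (7) between batches in females. In the same order this fit called 15.6%, 7.71%, 8.04%, 11.6%, 1.45% and 8.34% of all genes. Tested against a fold of 1.2, 2 were called at 28 against 6 months in males (4.13% of all genes). The same test called 2 and 0 at 28 against 20 months in females and males (15.3% and 3.77%), and 0 between batches in females (7.37%). DESeq2 called 2 at 12 against 6 months in males (0), 10 at 28 against 20 months in females, 3 between the sexes (0), and 11 and 2 between batches in females and males (7 and 0). In the same order it called 12.5%, 31.7%, 2.47%, 21.5% and 3.73% of all genes. Limma-voom called 1 and 3 at 12 against 6 months in females and males, 20 between the sexes, and 1 and 18 between batches. Its shares of all genes were 2.14%, 17.4%, 9.84%, 6.98% and 16.2%. A minimum count of 50 gave 1 at 12 against 6 months in males (14.1% of all genes), and no filter gave 4 between batches in females (9.49%). Without the libraries against their sex label 2 were called at 12 against 6 months in males (17% of all genes). In females 13 of 39 were called at 28 against 20 months, near the share of all genes (33.5%). The counts were 1 between the sexes (2.07%), and 13 and 1 between batches (24.2% and 3.05%). Without the skin and marrow libraries 4 were called between batches in females (15.1%). Without both sets the counts were 3 at 12 against 6 months in males (20.5%) and 17 at 28 against 6 months in females (7.32%). Between the sexes 6 were then called (3.06%), and between batches in males 4 (4.63%). Fitting only the compared groups gave 0 at 28 against 6 months in females (0% of all genes), 4 between the sexes (4.75%), and 0 and 18 between batches (7.11% and 9.62%). Leaving out 1 replicate at a time gave 0 to 3 at 12 against 6 months in either sex, 34 to 37 and 36 to 39 at 20 against 6 months in females and males, 15 to 37 and 8 to 30 at 28 against 6 months, 3 to 13 and 10 to 27 at 28 against 20 months, 0 with CaAKG, between the sexes, between batches in males and for the interaction, 1 to 13 between batches in females, and 1 to 6 ratio tests passing. The replicate block gave 0 and 1 at 12 against 6 months (0% and 5.75% of all genes) and 38 and 36 at 20 against 6 months (46.9% and 51.3%). It gave 0 with CaAKG and between the sexes (0% and 0.774%). The replicate numbers do not pair the mice. Single values changed sign for Cox6a1, at -0.13 in 28-month females without the skin and marrow libraries and 0.06 in 20-month females with offsets, and for Atp5a1 in 28-month males, which ran from -0.14 to 0.01 with 1 replicate left out. Groups of 4 to 12 mice limit what could be seen: a member that did not pass is not shown to be unchanged.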
